A study of Mus musculus with 15 samples.

Results

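The paraoxonase family of the mouse comprises Pon1, Pon2 and Pon3, and these 3 genes were followed among the 14766 genes of a lung RNA sequencing table. The rows were taken by gene symbol, and the family was chosen by its FPKM values in ovalbumin-treated (OVA) against control lungs, where Pon1 had the largest negative change of all tested genes. OVA is a protein of egg white that provokes allergic inflammation of the airways in sensitised animals. The table held 15 libraries of whole lung from wild-type mice, 5 in each of 3 groups, all labelled as batch 1. Control mice received saline, with neither OVA nor drug. OVA mice were induced with OVA, injected into the peritoneum and inhaled as an aerosol. OVA_Rg3 mice had the same OVA induction and were gavaged with ginsenoside Rg3, a saponin from ginseng roots, at 20 mg/kg while the model was being induced. Strain, sex and age were not given in the sources used here. Per the labels, each library is a biological replicate.

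Paraoxonases are calcium-dependent enzymes that open lactone rings, and PON1 also splits aryl esters and the toxic oxons of organophosphate insecticides. PON1 and PON3 are secreted mainly by the liver and travel in blood on high-density lipoprotein, where they limit lipid oxidation. PON2 stays inside cells in many tissues, among them the lung, where it limits oxidative stress and degrades the acyl-homoserine lactones with which Pseudomonas bacteria signal.

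The 3 genes lie side by side on the minus strand of chromosome 6 and span 130.366 kb on GRCm38, the build that the deposited positions match. Pon1 (ENSMUSG00000002588.12) lies at chr6:5168090-5193946, Pon3 (ENSMUSG00000029759.9) at chr6:5220852-5256286 and Pon2 (ENSMUSG00000032667.17) at chr6:5264147-5298455. Pon1 and Pon3 are separated by 26905 bp and Pon3 and Pon2 by 7860 bp. The main messenger RNA of each gene has 9 exons. Aligned coding bases were 68.4% identical between Pon1 and Pon2, 66.5% between Pon3 and Pon2 and 63.1% between Pon1 and Pon3. The longest run of bases shared by any pair of these messenger RNAs was 23 bp, so an exact match to more than 1 of them is no longer than that. Pon2 overlaps an unconfirmed gene model on the opposite strand, and the sources used here do not say whether reads were counted by strand.

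The 250 bases before the RefSeq start of each gene (GRCm38.p6, minus strand, 5′ to 3′) are shown because the 3 neighbouring genes differed in their levels across groups. Capitals mark the letters of motifs that were searched on both strands.
Pon1: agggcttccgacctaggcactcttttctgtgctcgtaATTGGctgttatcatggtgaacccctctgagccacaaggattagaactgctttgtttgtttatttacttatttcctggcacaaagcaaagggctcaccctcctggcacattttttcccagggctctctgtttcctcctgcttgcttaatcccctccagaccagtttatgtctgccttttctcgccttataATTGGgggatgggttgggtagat
Pon3: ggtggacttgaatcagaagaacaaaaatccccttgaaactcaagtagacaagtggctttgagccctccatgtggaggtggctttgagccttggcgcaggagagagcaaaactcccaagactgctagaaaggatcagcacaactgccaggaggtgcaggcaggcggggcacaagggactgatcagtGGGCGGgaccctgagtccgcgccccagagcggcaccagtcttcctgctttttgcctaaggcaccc
Pon2: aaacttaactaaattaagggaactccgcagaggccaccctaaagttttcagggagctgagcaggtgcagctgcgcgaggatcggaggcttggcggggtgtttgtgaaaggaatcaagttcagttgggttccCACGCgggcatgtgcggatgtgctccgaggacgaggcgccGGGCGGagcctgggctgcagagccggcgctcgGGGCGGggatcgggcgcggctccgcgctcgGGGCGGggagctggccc
They lie at chr6:5193947-5194196 for Pon1, chr6:5256234-5256483 for Pon3 and chr6:5298341-5298590 for Pon2. For Pon3 and Pon2 the RefSeq start lies inside the deposited gene span, which ends at 5256286 and 5298455. The last bases of these sequences, with all Sp1 motifs of Pon2, therefore lie within the genes as deposited. The Pon1 sequence held the CCAAT box (CCAAT) at 2 places, first bases -213 and -23 from the start, both in the reverse orientation. The Pon3 sequence held 1 Sp1 motif (GGGCGG) at -65. The Pon2 sequence held 3 Sp1 motifs, at -79, -47 and -17, and 1 reversed core of the aryl hydrocarbon receptor motif (GCGTG) at -119. Of 32851 promoters of this length, 33.8% held CCAAT, 32.7% GGGCGG and 28.2% GCGTG. None of the 3 sequences held TATAAA (12.4% of promoters), the HNF1 half-site GTTAAT (6.43%), the forkhead motif TGTTTAC (3.17%) or the RFX half-site GTTGCC (10.4%). G and C made up 47.6% of the Pon1 sequence with 3 CpG dinucleotides, 56.8% of that of Pon3 with 6, and 65.6% of that of Pon2 with 24. The median promoter had 52.4% and 6 CpG dinucleotides. These matches describe letters, not sites of binding.

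The values, read here as FPKM (reads scaled by gene length and library size), imply 0.829 to 8.98 M reads in the controls, 2.82 to 3.62 M in the OVA and 0.216 to 3.87 M in the OVA_Rg3 libraries, so that values of control 2 (0.829 M) and OVA_Rg3 1 (0.216 M) are the coarsest. Mitochondrially encoded transcripts took 18.9% to 29.3% of the summed values in controls, 46.2% to 79.8% in OVA and 41.6% to 70.4% in OVA_Rg3 libraries. The median log2 change over 12137 tested genes was -0.73 in OVA against control, 0.32 in OVA_Rg3 against OVA and -0.43 in OVA_Rg3 against control. Each comparison was therefore repeated after median-ratio scaling, which put these medians at -0.02, -0.02 and -0.06. Liver genes stood out in 3 libraries. Their 14 markers summed to 1438 FPKM in OVA_Rg3 1, 362 in control 2 and 177 in OVA 4, against 1.79 to 76.1 in the others. These libraries also had the most skeletal muscle transcripts, with 7 markers summing to 868, 236 and 128 FPKM, against 4.65 to 24.5 in the others. Defining lung genes were present, since club, ciliated, alveolar type 2 and endothelial markers were all in the table. In bulk lung, fewer cells of a type and less RNA per cell cannot be told apart.

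In control lungs Pon1 had the highest level of the 3 genes in FPKM in every library. Its group mean was 61.8 ± 18.8 FPKM (SD, n = 5), against 24.1 ± 7.19 for Pon3 and 15.9 ± 3.04 for Pon2. Pon3 was above Pon2 in all 5 controls, by 1.17-fold to 1.85-fold. The order of Pon3 and Pon2 depends on the length used. The deposited values divide by all annotated exon bases of a gene, retained introns included, which come to 2898 bp for Pon1, 3385 bp for Pon3 and 7339 bp for Pon2. The main messenger RNAs have 1513, 1837 and 2409 bp. Had all reads come from those, the control level per kilobase would have been 118 ± 36.1 for Pon1, 44.4 ± 13.2 for Pon3 and 48.5 ± 9.27 for Pon2 (SD, n = 5 each), and the levels of Pon3 and Pon2 would not have differed beyond their spread. This choice of length leaves differences between groups for 1 gene as they are.

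Pon1, the serum paraoxonase, stood at 76.3, 46.4, 60.1, 85.0 and 41.1 FPKM in controls 1 to 5. It stood at 2.09, 3.68, 1.83, 2.09 and 3.40 FPKM in OVA 1 to 5, and at 11.0, 7.47, 6.54, 12.6 and 3.85 FPKM in OVA_Rg3 1 to 5. The deposited values of the 3 groups did not overlap: every OVA library lay below every OVA_Rg3 library, and these below every control. The gap between OVA and OVA_Rg3 was narrow, from 3.68 FPKM in OVA 2 to 3.85 in OVA_Rg3 5. Group means were 2.62 ± 0.852 FPKM in OVA and 8.30 ± 3.53 in OVA_Rg3 (SD, n = 5 each), or 4.24% and 13.4% of the control mean. After scaling the means were 43.7 ± 11.6 in control, 3.82 ± 1.75 in OVA and 8.12 ± 3.17 in OVA_Rg3, and 1 OVA library, OVA 5 at 6.65, lay above 3 of the OVA_Rg3 libraries.

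The contrast of OVA with control chose the family, so its values are a description without a test. The log2 change of Pon1 was -4.09 (SE 0.30) on the log2(FPKM + 1) scale and -3.24 (SE 0.28) after scaling. It ranked first from the largest negative change in both. The gene just behind it was Scgb1c1, a secretoglobin, at -3.71 as deposited and -2.91 after scaling. The implied reads behind Pon1 numbered 111 in control 2 and 738 to 1985 in the other controls, 15.9 to 36.7 in OVA, and 26.4 to 83.8 in OVA_Rg3 2 to 5. OVA_Rg3 1 had only 6.89 implied reads (95% exact Poisson interval 2.75 to 14.3), so its 11.0 FPKM is uncertain. OVA 2 had 36.7 (25.8 to 50.6) and OVA_Rg3 5 had 26.4 (17.3 to 38.6). The gap between their values, 3.68 and 3.85 FPKM, is therefore within counting error. These intervals cover counting error only.

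**Figure D1:**
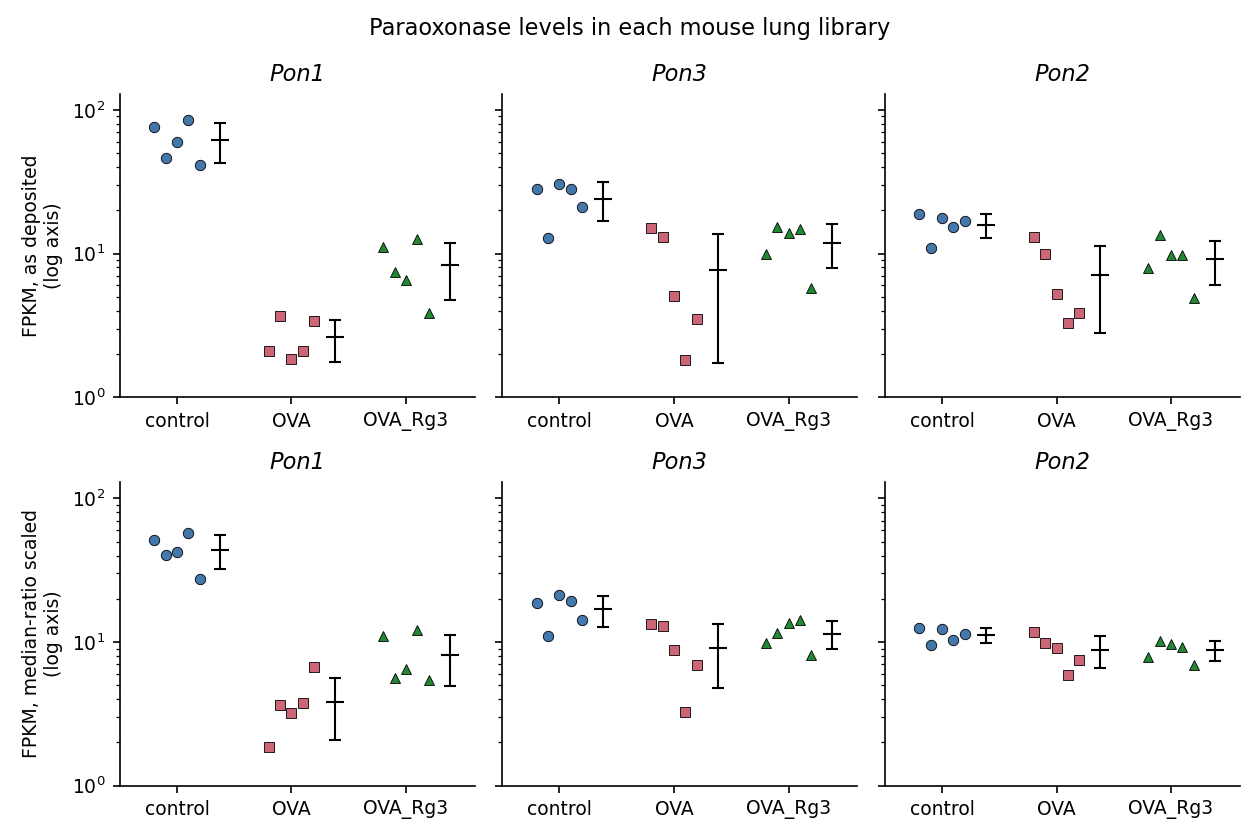
Level of Pon1, Pon3 and Pon2 in FPKM on a log axis, as deposited (top) and median-ratio scaled (bottom), 1 point per library, with the mean and SD of 5 libraries beside each group. Pon1 values as deposited do not overlap (41.1 to 85.0 in control, 1.83 to 3.68 in OVA and 3.85 to 12.6 in OVA_Rg3). The gap between OVA and OVA_Rg3 is within counting error. Pon3 and Pon2 overlap between groups.

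Pon3, the other lipoprotein-borne paraoxonase, stood at 28.0, 12.8, 30.3, 28.2 and 21.2 FPKM in controls 1 to 5. It stood at 15.1, 13.1, 5.07, 1.81 and 3.52 FPKM in OVA 1 to 5, and at 9.92, 15.2, 13.8, 14.8 and 5.74 FPKM in OVA_Rg3 1 to 5. Control 2, at 12.8, was the only control within the range of the other groups. The OVA libraries were split, with OVA 1 and 2 near the OVA_Rg3 libraries and OVA 3 to 5 below all of them. The log2 change in OVA against control was -1.77 (SE 0.43) as deposited and -0.92 (SE 0.30) after scaling, a description without a test.

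Pon2, the intracellular paraoxonase, stood at 18.8, 11.0, 17.6, 15.2 and 16.9 FPKM in controls 1 to 5. It stood at 13.1, 9.93, 5.23, 3.28 and 3.85 FPKM in OVA 1 to 5, and at 7.91, 13.4, 9.84, 9.69 and 4.88 FPKM in OVA_Rg3 1 to 5. As with Pon3, control 2 was the lowest control, and OVA 1 and 2 stood above OVA 3 to 5. The log2 change in OVA against control was -1.20 (SE 0.33) as deposited and -0.34 (SE 0.17) after scaling. Scaled means were 11.2 ± 1.32 in control, 8.82 ± 2.20 in OVA and 8.77 ± 1.37 in OVA_Rg3 (SD, n = 5 each).

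Only Pon1 of the 3 had OVA libraries all below the controls, among the 32.1% of tested genes that did so as deposited and the 9.24% after scaling. That share used the contrast of the rule, and nothing is read from it. Changes of Pon3 and Pon2 placed 671st and 2209th from the largest negative change as deposited, and 882nd and 3075th after scaling.

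The comparison of OVA_Rg3 with OVA asks what the ginsenoside changed in allergic lungs, and it shares its 5 OVA libraries with the contrast that chose the family. Pon1 was 3.17-fold higher in mean FPKM with Rg3, and all 25 pairs of an OVA_Rg3 and an OVA library had the higher value in OVA_Rg3. The nearest pair, OVA_Rg3 5 at 3.85 and OVA 2 at 3.68 FPKM, differed by less than its counting error. Such separation was seen in 2.1% of tested genes as deposited. The log2 change was 1.30 (SE 0.30, 95% interval 0.67 to 1.93), but it did not pass the threshold over all genes (limma adjusted p = 0.232). Pon1 placed 20th by p of 12137 genes and 64th from the largest positive change as deposited, and 150th and 85th after scaling. Its low OVA values were part of what chose it, so these ranks are not independent of the choice. After scaling the log2 change was 0.92 (95% interval 0.33 to 1.52, limma adjusted p = 0.391), and 22 of 25 pairs were higher. Without OVA_Rg3 1, the shallow library with the liver transcripts, the change was 1.19 as deposited and 0.81 after scaling (limma adjusted p = 0.242 and 0.464).

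Pon3 and Pon2 did not pass the threshold with Rg3 either. The log2 change of Pon3 was 0.80 (95% interval -0.10 to 1.70, limma adjusted p = 0.373), with 19 of 25 pairs higher. That of Pon2 was 0.43 (95% interval -0.27 to 1.12, limma adjusted p = 0.496), with 16 of 25 pairs higher. After scaling they were 0.41 (-0.22 to 1.04) and 0.01 (-0.36 to 0.38), so the scaled interval of Pon2 holds no log2 change above 0.38 in size. In this comparison 0 of 12137 genes passed the threshold with limma (0% called), while 1756 genes, or 14.5%, had an unadjusted p under 0.05. With limma's array weights 6947 genes, or 57.2%, were called higher and 32 lower, and Pon1, Pon3 and Pon2 were among those higher (limma adjusted p = 0.00309, 0.00230 and 0.00360).

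The comparison of OVA_Rg3 with control asks what remained different in treated allergic lungs, and it shares its 5 control libraries with the contrast that chose the family. Since Pon1 was chosen for its fall from those controls, its test, rank and call here are not independent results. Pon1 was lower, by 7.44-fold in mean FPKM as deposited and 5.39-fold after scaling. Its log2 change was -2.79 (SE 0.30, limma adjusted p = 0.000193) and -2.32 after scaling (SE 0.28, limma adjusted p = 0.00260). Genes called lower made up 15.8% of those tested as deposited and 4.75% after scaling, and Pon1 was the only member among them. It placed 8th from the largest negative change under both. All 25 pairs were lower, as for the 18.5% of genes whose OVA_Rg3 libraries all lay below the controls as deposited (7.53% after scaling, Pon1 among them). Genes called higher made up 0.774% and 2.98%. The change was -2.995 without control 2, OVA 4 and OVA_Rg3 1, the libraries with the most liver transcripts (limma adjusted p = 0.00106).

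Pon3 and Pon2 were below the threshold of this test, at log2 changes of -0.97 (limma adjusted p = 0.118) and -0.77 (limma adjusted p = 0.108). They were -0.51 and -0.33 after scaling (limma adjusted p = 0.310 and 0.264). With only the 2 groups of the comparison in the fit, both passed (limma adjusted p = 0.0406 for Pon3 and 0.0461 for Pon2), with 20.8% of genes called lower.

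A ratio of 2 paraoxonases within a library does not depend on how libraries are scaled when it is taken on FPKM itself. With 1 FPKM added to both values, as in the tests here, it does to some extent, so both are given. The log2 ratio of Pon1 to Pon2, on FPKM + 1, was 1.86 ± 0.43 in control, -1.03 ± 0.79 in OVA and -0.16 ± 0.53 in OVA_Rg3 (SD, n = 5 each). Pon1 exceeded Pon2 in FPKM in all 5 controls (1.23 to 2.41) and in no OVA library (-2.19 to -0.14). It did so in 2 OVA_Rg3 libraries (-0.77 to 0.43), a count that depends on the length used. Per kilobase of the main messenger RNAs, Pon1 was below Pon2 in both. It was 21.1 against 24.1 in OVA_Rg3 1 and 24.2 against 29.5 in OVA_Rg3 4. The log2 ratio on FPKM + 1 was lower in OVA_Rg3 than in control by 2.02 (exact permutation test, two-sided, p = 0.00794, adjusted p = 0.0238 over 6 tests). Here 0.00794 is the smallest p that 5 against 5 can give. The ratio test was planned for OVA_Rg3 against OVA only. Its use against control takes the 5 control libraries of the contrast that chose Pon1, so it is not an independent result. OVA_Rg3 exceeded OVA by 0.88, with overlap (exact permutation test, two-sided, p = 0.0794, adjusted p = 0.119). Without OVA 5 it did so by 1.10 (exact p = 0.0397, not adjusted), the only 1 of 10 fits without a library that had p under 0.05. With nothing added, the ratio was 1.93 ± 0.44 in control, -1.29 ± 0.94 in OVA and -0.18 ± 0.59 in OVA_Rg3 (SD, n = 5 each). OVA_Rg3 then differed from control by -2.11 (exact permutation p = 0.00794, two-sided) and from OVA by 1.10 (exact permutation p = 0.0635, two-sided).

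The ratio of Pon1 to Pon3 was 1.33 ± 0.37 in control, -0.995 ± 1.06 in OVA and -0.49 ± 0.48 in OVA_Rg3 (SD, n = 5 each). The difference of OVA_Rg3 from control was -1.82 (exact permutation test, two-sided, p = 0.00794, adjusted p = 0.0238), and that from OVA was 0.50 (p = 0.373, exact). The ratio of Pon3 to Pon2 was 0.53 ± 0.28, -0.04 ± 0.37 and 0.34 ± 0.17 in the same order of groups. OVA_Rg3 differed from OVA by 0.37 (exact permutation p = 0.0635, two-sided, adjusted p = 0.119) and from control by -0.20 (exact permutation p = 0.190, two-sided). Without OVA 2 the difference from OVA was 0.48 (exact p = 0.0159, not adjusted), the only 1 of 10 fits without a library that had p under 0.05. Pon1 was lower relative to both neighbours in OVA_Rg3 than in control, in tests that reuse the controls by which Pon1 was chosen. For Pon3 relative to Pon2 no difference passed the test with all libraries. With nothing added, Pon1 to Pon3 differed from control by -1.92 in OVA_Rg3 (exact permutation p = 0.00794, two-sided) and from OVA by 0.65 (exact p = 0.333). Pon3 to Pon2 then differed from control by -0.19 (exact p = 0.254) and from OVA by 0.46 (exact p = 0.0635).

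**Figure D2:**
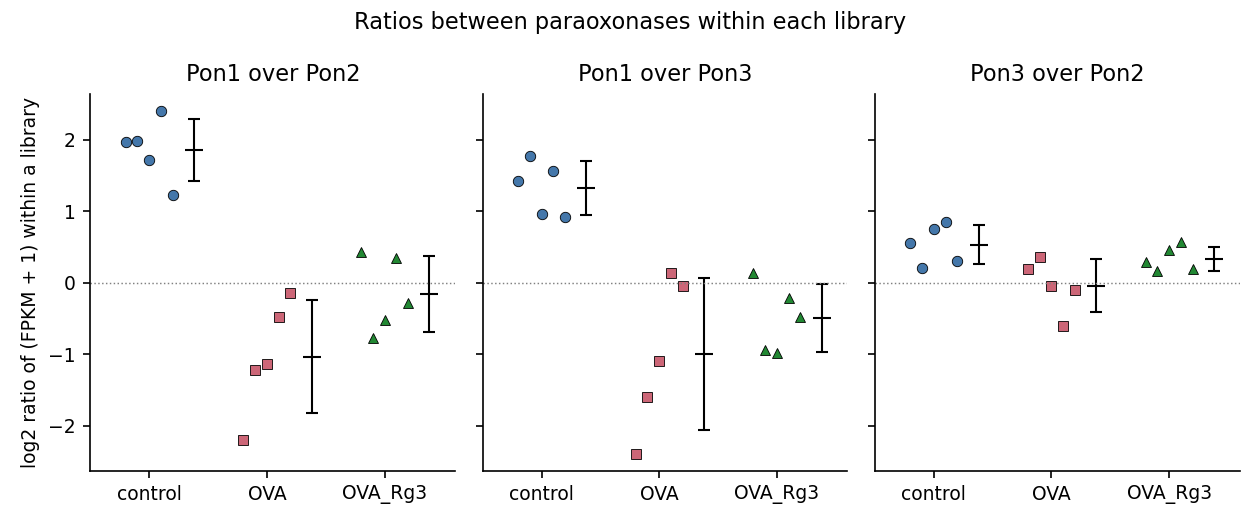
Log2 ratio of (FPKM + 1) between pairs of paraoxonases in each library. The mean and SD of 5 libraries stand beside each group, and the dotted line marks equal FPKM. Pon1 over Pon2 lies between 1.23 and 2.41 in all controls and at or below 0.43 in all other libraries, and Pon3 over Pon2 overlaps among the 3 groups.

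Across the 15 libraries the levels of Pon3 and Pon2 went together more closely than either did with that of Pon1. On scaled log2(FPKM + 1) values Pearson's r of Pon3 with Pon2 was 0.90 (Spearman's rho 0.85) and 0.82 without the 2 libraries farthest from the median of Pon3. With the group means removed it was again 0.90, and 0.82 without the 2 libraries farthest from the median of Pon3 in those values. By r, Pon2 was the 9th closest of 12136 genes to Pon3 and Pon3 the 6th closest to Pon2. For Pon1, r with Pon3 was 0.60 and with Pon2 0.47, or 0.45 and 0.34 without the 2 libraries farthest from the median of Pon1. With the group means removed they were -0.05 and -0.30, but 0.24 and -0.01 without the 2 farthest libraries, so these negative values rest on 2 libraries. These values are descriptions over 15 libraries that share their depth and scaling, and no p is given.

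The genes closest to Pon1 by r were Serpinf1 (0.96), which encodes a secreted factor against vessel growth, Cat (0.96), the catalase that breaks down hydrogen peroxide, Prom2 (0.95), Wdr66 (0.94), a component of motile cilia, and Wdr6 (0.92). With the group means removed their r ranged from 0.50 to 0.69. The closest to Pon3 were Timm21 (0.94), Clcc1 (0.93), Tmem8 (0.92), Met (0.91), the receptor of hepatocyte growth factor, and Slc9a5 (0.91). The closest to Pon2 were Sdc1 (0.93), an epithelial heparan sulfate proteoglycan, Tmem8 (0.92), Gde1 (0.91), Stt3a (0.91), a subunit of oligosaccharyltransferase, and Mfsd1 (0.91). For these the r with the group means removed stayed between 0.86 and 0.92.

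**Figure D3:**
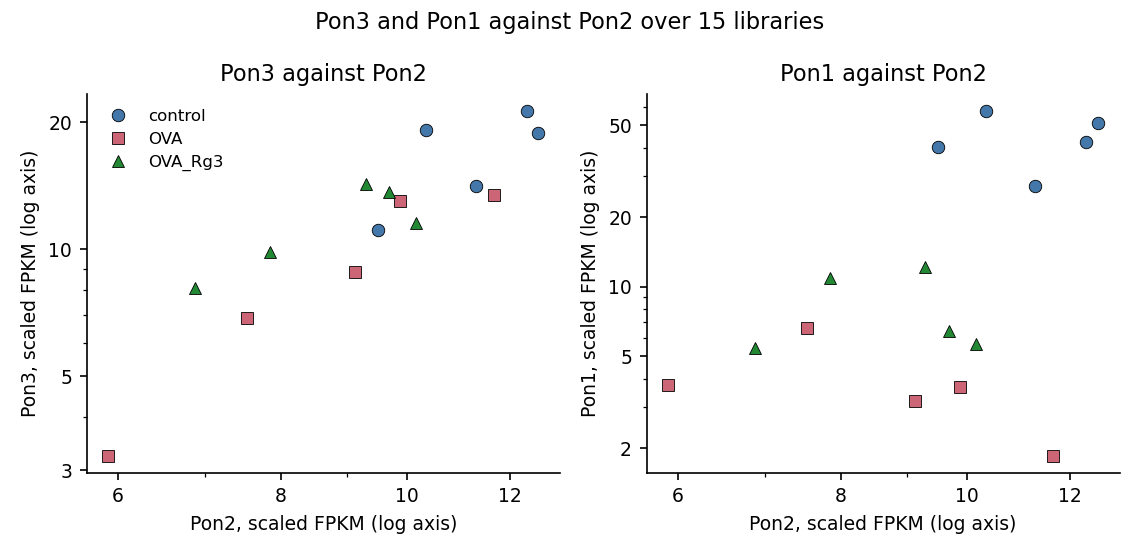
Scaled FPKM of Pon3 (left) and Pon1 (right) against Pon2 on log axes, 1 point per library. Pon3 follows Pon2 within and across groups (r = 0.90), while OVA 1 has the lowest Pon1, 1.86, at a Pon2 level of 11.7 that is within the range of the controls.

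Lists of lung cell type markers differed in how many of their genes were called with OVA. Smooth muscle genes summed to 594 to 804 FPKM in controls, 66.3 to 141 in OVA and 142 to 308 in OVA_Rg3. This was the order of groups of Pon1, but after scaling the sums in OVA (103 to 199) and OVA_Rg3 (175 to 261) overlapped. Of these markers 8 of 8 tested fell with OVA (7 of 8 after scaling). Ciliated cell genes summed to 966 to 1653 FPKM, 143 to 519 and 141 to 561, and 9 of 9 fell with OVA (6 of 9 after scaling). Club cell genes summed to 67572 to 235824 FPKM, 13519 to 68712 and 21876 to 46626, and 6 of 7 fell (4 of 7 after scaling). Of 9 alveolar type 2 genes 2 fell with OVA (0 after scaling). Of 8 endothelial genes 1 fell (0 after scaling, when 1 rose). Of 5 alveolar macrophage genes 2 fell and 1 rose (1 and 2 after scaling). Of all tested genes 0.577% rose with OVA as deposited and 6.32% after scaling. After scaling, 6 of 8 smooth muscle and 6 of 9 ciliated genes were lower in OVA_Rg3 than in control (4.75% of all genes). In the same comparison 5 of 7 club cell genes were lower as deposited (15.8% of all genes). After scaling 0 of 7 were called, although their median log2 change was -0.82 against -0.06 over all genes. Of 8 endothelial genes 0 were higher as deposited (0.774% of all genes) and 4 after scaling (2.98%). The endothelial median log2 change after scaling was 1.05. In the smooth muscle, ciliated and club cell lists no marker was at 0 in a control or an OVA library, while 2 ciliated and 1 smooth muscle marker were at 0 in OVA_Rg3 1. As examples, the log2 change with OVA was -2.84 for the club cell cytochrome Cyp2f2 and -2.10 for the secretoglobin Scgb1a1. It was -2.75 for Foxj1, the master transcription factor of cilia, and -2.38 for Tppp3 (limma adjusted p = 0.000155, 0.00140, 0.000183 and 9.59e-05). After scaling the 4 stood at -1.87, -1.12, -1.80 and -1.42, and Scgb1a1 no longer passed (limma adjusted p = 0.0137, 0.116, 0.0127 and 0.00948). Pearson's r of Pon1 with the mean of smooth muscle, ciliated and club cell genes after scaling was 0.90, 0.70 and 0.69 over 15 libraries. With the group means removed it was 0.02, 0.09 and 0.32. For the cardiac muscle list these values were 0.72 and 0.47, and for the endothelial list -0.64 and -0.45. They were -0.08 and -0.48 for the alveolar type 2 list and -0.27 and -0.34 for the alveolar macrophage list. The liver list had -0.05 and 0.16 and the skeletal muscle list -0.02 and 0.37. With 51.2% of tested genes called lower as deposited and 8.39% after scaling, the part of these markers in the level of Pon1 was not tested.

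Within the OVA group Pon3 and Pon2 moved with alveolar type 2 markers and against the mitochondrial share. OVA 1 and 2 had 10753 and 6211 FPKM summed over 9 alveolar type 2 genes and mitochondrial shares of 46.2% and 49.9%. OVA 3 to 5 had 1636, 1445 and 1035 FPKM and shares of 70.5%, 79.8% and 78.6%. With the group means removed, r with the mean of the 9 scaled alveolar type 2 genes was 0.80 for Pon2, 0.64 for Pon3 and -0.48 for Pon1 over 15 libraries. Other lists had values of like size: the liver list -0.71 for Pon2 and -0.70 for Pon3, the skeletal muscle list -0.68 and -0.67, the alveolar macrophage list 0.60 and 0.46 and the endothelial list 0.59 and 0.46. The part of cell composition or mitochondrial RNA in these levels was not tested.

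Pon1 in the 3 libraries with liver transcripts lay within the range of the other libraries of their groups. In control 2, with Alb (albumin) at 178 FPKM, Pon1 was 46.4 FPKM, within the 41.1 to 85.0 of the other controls, where Alb was 0.217 to 0.861. In OVA 4, with Alb at 92.4 FPKM, Pon1 was 2.09, within the 1.83 to 3.68 of the other OVA libraries. In OVA_Rg3 1, with Alb at 716 FPKM, Pon1 was 11.0 and OVA_Rg3 4, with Alb at 2.35, had 12.6. Of the 14 liver markers 0 were at 0 in each of control 2, OVA 4 and OVA_Rg3 1, and 7 to 9 were at 0 in the other controls. Pon3 and Pon2 were the lowest of their group in control 2 (12.8 and 11.0 FPKM) and in OVA 4 (1.81 and 3.28 FPKM), and next to lowest in OVA_Rg3 1 (9.92 and 7.91 FPKM). Without these 3 libraries the OVA change was -1.64 for Pon3 and -1.13 for Pon2. Against control the change in OVA_Rg3 was then -1.13 and -0.86 (limma adjusted p = 0.0603 and 0.0841), and against OVA it was 0.51 and 0.27 (limma adjusted p = 0.541 and 0.693).

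**Figure D4:**
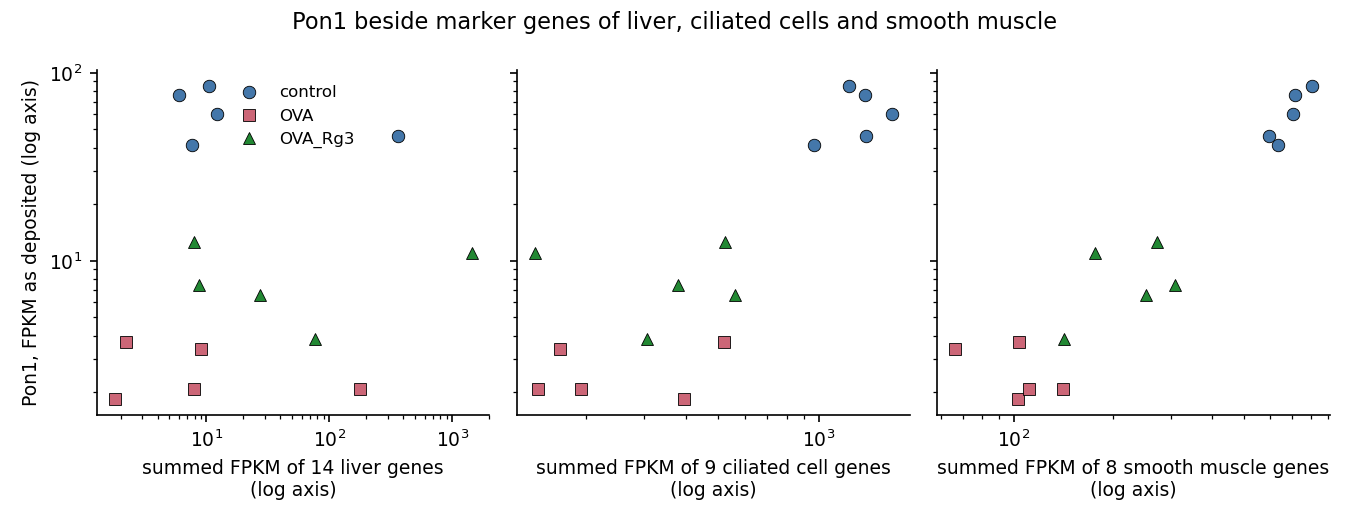
Pon1 in FPKM as deposited against the summed FPKM of 14 liver, 9 ciliated cell and 8 smooth muscle genes on log axes, 1 point per library. The libraries with summed liver genes of 1438, 362 and 177 FPKM have Pon1 within the range of their groups. Smooth muscle sums as deposited fall into the same order of groups as Pon1, but those of OVA and OVA_Rg3 overlap after scaling.

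The genes around the cluster are given beside Pon1 as a description only, since Pon1 was chosen for having the largest fall of all genes. Of 7 tested protein-coding neighbours within 1 Mb, 3 fell with OVA as deposited (51.2% of all tested genes did) and 1 after scaling (8.39%). The one that fell under both was Col1a2, a chain of type I collagen, at -2.15 (limma adjusted p = 0.000207) and -1.26 after scaling (limma adjusted p = 0.00198). Casd1, which acetylates sialic acids, and Slc25a13, a mitochondrial aspartate-glutamate carrier, fell by 1.12 and 0.90 on the log2 scale as deposited only (limma adjusted p = 0.0195 and 0.00986). Ppp1r9a, which lies 2.429 kb from Pon1, had a log2 change of -0.44 as deposited and 0.22 after scaling (limma adjusted p = 0.331 and 0.689). Pdk4, the kinase that inhibits pyruvate dehydrogenase, had -0.13 and 0.55 (limma adjusted p = 0.888 and 0.692). Sgce and Peg10, which are imprinted, had -0.46 and -0.27 as deposited and 0.14 and 0.28 after scaling, with no call. In OVA_Rg3 against OVA 0 of the 7 were called, as were 0 of all 12137 tested genes. In OVA_Rg3 against control, where 15.8% of all genes were lower (4.75% after scaling), only Col1a2 was called. It stood at -1.13 (limma adjusted p = 0.0278) and no longer passed after scaling (limma adjusted p = 0.0596). That call was also lost without control 1, 3, 4 or 5 or without OVA_Rg3 3 or 5 (limma adjusted p from 0.0580 to 0.0849). Casd1 did not pass with OVA without OVA 4 or OVA 5 (limma adjusted p = 0.0558 and 0.0621), and Sgce passed without OVA 1 (limma adjusted p = 0.0373).

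**Figure D5:**
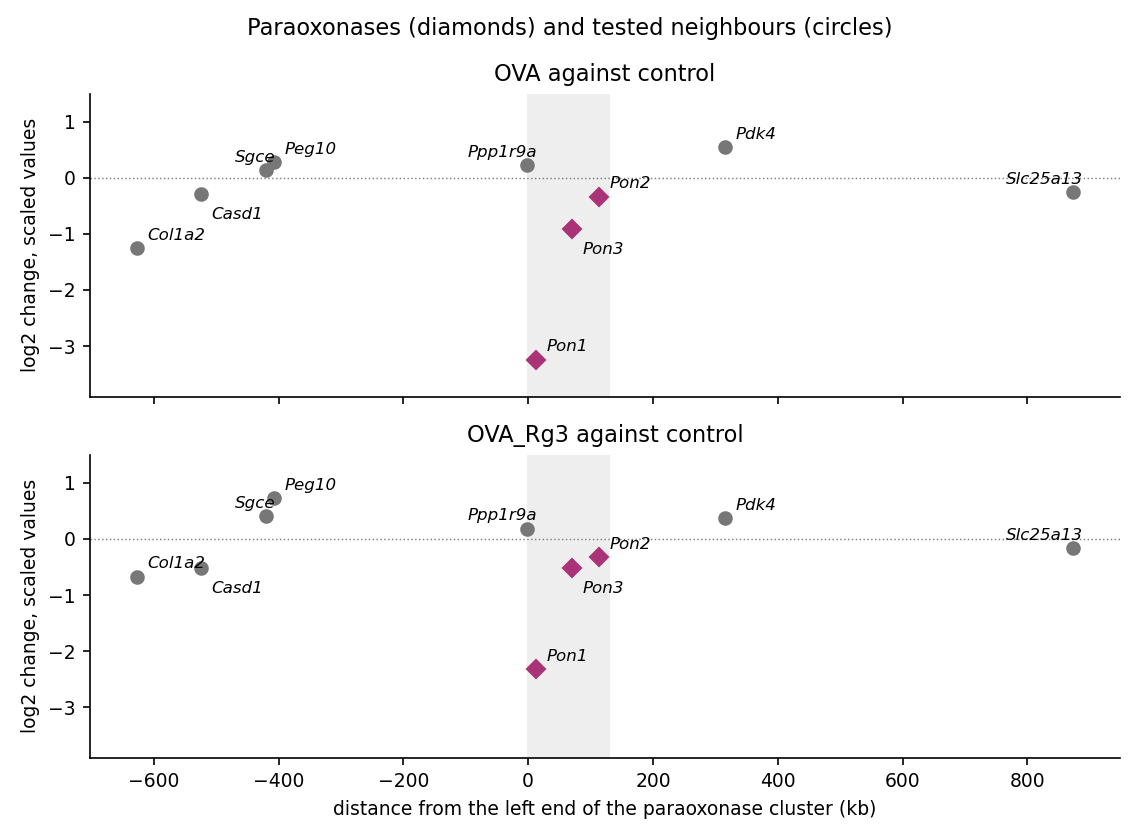
Log2 change after scaling of the 3 paraoxonases (diamonds) and 7 tested neighbours (circles) against distance in kb from the left end of the cluster, which is shaded, for OVA (top) and OVA_Rg3 (bottom) against control. The neighbours lie on both sides of 0 with OVA, from -1.26 for Col1a2 to 0.55 for Pdk4, and the position of Pon1, at -3.24, is the value for which it was chosen.

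Other enzymes that split esters, lactones and epoxides showed some of the same direction. Of 29 listed, 21 were in the table and 11 were tested. With OVA 7 of the 11 fell as deposited and 0 rose, where 51.2% of all genes fell and 0.577% rose, with a median log2 change of -1.55 against -0.73 over all genes. After scaling 5 fell (8.39% of all genes did) and 1, the S-formylglutathione hydrolase Esd, rose by 1.06 (limma adjusted p = 0.0122, 6.32% of all genes rose), with a median of -1.04 against -0.02. Those that fell under both were Ephx1, the microsomal epoxide hydrolase, and the carboxylesterases Ces1d, Ces1e, Ces1f and Ces1g. Ephx1 was 107 ± 29.6 FPKM in control, 16.9 ± 6.53 in OVA and 46.4 ± 16.1 in OVA_Rg3 (SD, n = 5 each), a log2 change of -2.63 with OVA (limma adjusted p = 4.71e-05).

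Ces1d, a carboxylesterase of lung and liver, was 385 ± 114 FPKM in control, 58.2 ± 31.0 in OVA and 132 ± 51.0 in OVA_Rg3 (SD, n = 5 each), a log2 change of -2.80 with OVA (limma adjusted p = 7.38e-05). Ces1e, Ces1f and Ces1g had log2 changes of -2.53, -2.33 and -1.55 (limma adjusted p = 0.000559, 0.000103 and 0.000545). The Ces1 genes are close paralogs, so reads may be split among them. Against control, 5 of the 11 were lower in OVA_Rg3 as deposited (15.8% of all genes were) and 2, Ces1d and Ephx1, after scaling (4.75%). Against OVA 0 of the 11 passed, as for Pon1 itself and for all 12137 tested genes.

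Of 21 listed genes of the lipoprotein particles that carry PON1 and PON3, 19 were in the table and 13 were tested, and 2 fell with OVA as deposited (51.2% of all genes did) and 0 after scaling (8.39%). The median log2 change was -0.46 as deposited and 0.25 after scaling, above the -0.73 and -0.02 of all genes. Saa3, an acute-phase apolipoprotein, fell by 2.00 on the log2 scale (limma adjusted p = 0.0103), and Clu, the chaperone clusterin, fell by 1.02 (limma adjusted p = 0.0154). After scaling they stood at -1.15 and -0.07 (limma adjusted p = 0.107 and 0.929). Pltp, the phospholipid transfer protein, Lcat, which esterifies cholesterol on the particle, and Apoc1 were not called, with log2 changes of -0.68, -0.67 and -0.83, although Pltp passed without OVA 1 (limma adjusted p = 0.0340). In OVA_Rg3 against control Saa3 was the only one called, at -2.09 as deposited and -1.64 after scaling (limma adjusted p = 0.0205 and 0.0421). Of all genes 15.8% were lower in it as deposited and 4.75% after scaling. As deposited, Saa3 did not pass in that comparison without control 3, control 5 or OVA_Rg3 5 (limma adjusted p = 0.0576, 0.0557 and 0.0641).

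Of 9 genes named as regulators of paraoxonases in other systems, 7 were in the table and 6 were tested. With OVA 3 of the 6 fell as deposited (51.2% of all genes did) and 1 after scaling (8.39%). Srebf2, the sterol-sensing transcription factor, fell with OVA by 1.71 on the log2 scale, and by 0.87 after scaling (limma adjusted p = 0.00108 and 0.0185). Pparg and Ahr, a lipid-sensing and a xenobiotic-sensing receptor, fell by 0.78 and 0.68 as deposited (limma adjusted p = 0.0191 and 0.0332), but Ahr stood at 0.19 and Pparg at -0.08 after scaling, with no call. Ahr did not pass without control 1, 3, 4 or 5 or without OVA 3 or 4, with limma adjusted p from 0.0601 to 0.0944. Sp1 and Fgfr4 were not called, with log2 changes of -1.09 and -0.22, although Sp1 passed without control 1 or OVA 1 (limma adjusted p = 0.0123 and 0.0427). In OVA_Rg3 against OVA 0 of the 6 were called, as were 0 of all 12137 tested genes. Against control 0 of the 6 were called, where 15.8% of all genes were lower as deposited and 4.75% after scaling.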

How the data were processed

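Lung RNA from 15 mice was measured by RNA sequencing of poly(A)-selected libraries, per the labels' protocols. The authors' deposited unit is read as FPKM from the values, since the header names none. Trimmomatic, featureCounts, GRCm39 and mm39 are named without versions, per the submitters' processing notes, whereas 13545 of 14746 matched genes had the coordinates of GENCODE M21 on GRCm38. Values multiplied by the summed exon length of the gene were whole at the last decimal (tolerance 0.01) in all 15 libraries for 93.9% of 11720 genes with several transcripts. Implied reads came from the step that 1 read makes in genes with 1 transcript (1768 genes).

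Genes with at least 1 FPKM in at least 5 libraries (12137) were tested as log2(FPKM + 1) with limma 3.58.1 in R 4.3.3, 1 mean per group, trend and robust estimation, and Benjamini-Hochberg adjustment over all genes (threshold 0.05). The fit was tested on simulated data. Ratios were compared by exact two-sided permutation. Promoters came from RefSeq. Python 3.11.15 and matplotlib 3.10.9 drew the plots.

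The members, lists and tests were chosen with earlier results of these data known. Named genes were up to 5 tested genes of smallest p in OVA against control from each of the lipoprotein, hydrolase and regulator lists, all tested neighbours, 6 fixed markers, and the 5 genes of highest r with each member. Scgb1c1 and the correlations with marker lists were chosen after values were seen. Of the other lists, the liver and skeletal muscle lists had 0 genes called with OVA and the cardiac list had 4 of 6 lower (51.2% of all tested genes). None of 5 pancreas genes and 1 of 4 thymus genes were in the table.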

Additional observations from a re-analysis of the deposited data

How the results depend on the processing

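Pon1 kept its direction in all 3 comparisons under every alternative run, and its call against control in OVA_Rg3 under each. That call reuses the controls by which Pon1 was chosen in every run. In OVA against control its log2 change was -3.24 with median-ratio scaling, -3.26 with quantile normalization, -4.51 with a pseudocount of 0.1, and -3.28 with scaling and without control 2, OVA 4 and OVA_Rg3 1 (hereafter the reduced scaled set). That of Pon3 was -0.92 with scaling, -2.61 with array weights and -0.77 in the reduced scaled set, and that of Pon2 -0.34 with scaling, -0.35 with quantile normalization and -0.27 in the reduced scaled set. In OVA_Rg3 against OVA array weights gave 1.29 for Pon1, 1.65 for Pon3 and 0.97 for Pon2, all past the threshold, and Pon2 stood at -0.075 in the reduced scaled set. In OVA_Rg3 against control Pon3 and Pon2 passed at -0.96 and -0.77 with array weights and at -0.97 and -0.77 with only the 2 groups fitted. The causes were not tested.

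Leaving out 1 library at a time, the OVA change ranged from -4.23 to -3.97 for Pon1 (scaled -3.43 to -3.07), -2.07 to -1.44 for Pon3 (scaled -1.08 to -0.64) and -1.44 to -1.01 for Pon2 (scaled -0.44 to -0.22). The change of Pon2 in OVA_Rg3 against OVA ranged from 0.24 to 0.67, and from -0.11 to 0.11 after scaling. The scaled fits without single libraries were chosen after seeing the data. Ratios in OVA_Rg3 against OVA ranged from 0.59 to 1.10 for Pon1 over Pon2 and 0.23 to 0.48 for Pon3 over Pon2. The exact p, not adjusted, was under 0.05 in 1 of 10 such fits each. Alb ranged from -0.54 to 1.87, Pdk4 from -0.47 to 0.25 and Peg10 from -0.46 to 0.056. Counts ranged from 44 to 94 higher with OVA, 0 to 3 higher in OVA_Rg3 against OVA, and 48 to 141 higher and 1014 to 2506 lower in OVA_Rg3 against control.

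Genes higher with OVA numbered 70 as deposited, 767 with scaling, 783 with quantile normalization, 110 with array weights and 1121 in the reduced scaled set. Genes lower numbered 6216, and 1018, 979, 9910 and 1355 under the same alternatives, and 3782 with a filter of 5. In OVA_Rg3 against OVA, 0 were higher as deposited, 1 each with quantile normalization and a pseudocount of 0.1, 2 each with a filter of 5, without the 3 libraries and in the reduced scaled set, and 6947 with array weights, which called 32 lower. In OVA_Rg3 against control 94 were higher, and 362 with scaling, 419 with quantile normalization, 457 with array weights, 148 without the 3 libraries and 542 in the reduced scaled set. Genes lower numbered 1922, and 577 with scaling, 624 with quantile normalization, 1125 with a filter of 5, 894 with a pseudocount of 0.1, 6912 with array weights and 469 in the reduced scaled set.

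Changes with OVA that turned positive with scaling, quantile normalization and in the reduced scaled set were 0.27, 0.16 and 0.27 for Pltp, 0.065, 0.034 and 0.13 for Apoc1, 0.19, 0.18 and 0.17 for Ahr, 0.21, 0.26 and 0.067 for Fgfr4, 0.14, 0.24 and 0.14 for Sgce, 0.28, 0.39 and 0.35 for Peg10, 0.22, 0.32 and 0.31 for Ppp1r9a, and 0.55, 0.63 and 0.74 for Pdk4. Pparg was 0.040 with quantile normalization, Peg10 0.28 with array weights and Pdk4 0.12 without the 3 libraries.

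With the replicate number as a block, Pon1 stood at 1.30 in OVA_Rg3 against OVA and -2.79 against control, Pon3 at 0.80 and -0.97 and Pon2 at 0.43 and -0.77, with no call changed, and 68 genes were higher and 5748 lower with OVA. Of the named genes only Ahr lost its call. Of 15 same-numbered pairs of libraries 5 correlated above 0.1 (range -0.39 to 0.34). Libraries of different numbers were not compared, so whether the numbers pair the libraries was not tested.

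Depth limits control 2 and OVA_Rg3 1, where 3 reads on Pon1 are worth 1.25 and 4.80 FPKM, and these floors cover counting error only.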
